A study of Mus musculus with 15 samples.

Results

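The inner root sheath genes described here are 6 keratins and trichohyalin, Krt25, Krt27, Krt28, Krt71, Krt72, Krt73 and Tchh, followed through skin wounds of mice and normal skin. Their rule is a list of gene symbols, drawn up with earlier results of these data known. All 7 were present among the 18929 genes of the count table, and all 7 passed the filter on low counts together with 15369 genes in total.

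The inner root sheath is the sleeve of keratinocytes that surrounds the growing hair shaft inside the follicle, and it is built from Henle's layer, Huxley's layer and a cuticle. Its keratin filaments are obligate pairs of a type I keratin (Krt25, Krt27 or Krt28) and a type II keratin (Krt71, Krt72 or Krt73). Trichohyalin, a granule protein that peptidylarginine deiminases modify and transglutaminases cross-link to the keratin filaments, hardens the sheath before it breaks down higher in the follicle. The sheath is made by follicles in their growth phase and is lacking in resting follicles.

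The study asked whether printed Matrigel beads that carry mesenchymal stem cells aid the repair of large skin wounds. Wild-type male balb/c mice, 4 to 6 weeks old, received round full-thickness wounds of 10 mm or 15 mm on the back. In the acellular groups the wound was filled with cell-free Matrigel beads, and in the HDB groups with beads holding human umbilical cord mesenchymal stem cells at high density, printed in a sparse pattern with cell-free beads between them. The normal group was unwounded skin under normal growth. Each of the 5 groups had 3 samples of whole skin, and nothing in the labels says that they were separate animals, so the p-values measure the spread between these samples only. The skin was stated to be taken 4 weeks after implantation, while the wound experiment itself was stated to end on day 21. The mice were immunocompetent hosts of human cells, and reads were counted on mouse genes. In whole skin, fewer sheath cells and less RNA per sheath cell cannot be told apart.

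Total counts lay between 15840551 and 18404188 a sample. The label of skin held in every library. The summed level of 7 markers of the epidermis between follicles (Krt5, Krt14, Krt1, Krt10, Krt77, Lor and Ivl) lay between 5505 and 16322 CPM (counts scaled to library size, normalized by the trimmed mean of M values, TMM) over the 15 samples. Some values rest on few reads, in normal skin and also in wounds, such as 3.01 reads of Krt25 in acellular 10 mm replicate 2 and 8, 9 and 10 reads of Krt72 in the HDB 10 mm samples.

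The genes sit in 3 places of the mouse genome (GRCm38). Krt25 (chr11:99315516-99322951), Krt27 (chr11:99345565-99351118) and Krt28 (chr11:99365007-99374903) are neighbours on the minus strand with 8 exons each. Krt71 (chr15:101733949-101743097), Krt72 (chr15:101776172-101786520) and Krt73 (chr15:101793304-101802360) form a second cluster on the minus strand with 9 exons each. Tchh (chr3:93442330-93449077) has 2 exons on the plus strand and overlaps the antisense noncoding gene Gm37245, and since strand was not stated for these libraries, reads of the pair cannot be told apart. Keratins are close copies of each other. Of all 50-base words of the transcript, 10.9% in Krt25 and 11.1% in Krt27 also occur in another keratin gene, against 2.41% in Krt28, 1.97% in Krt71, 1.32% in Krt73, 0.158% in Krt72 and 0 in Tchh. Krt25 and Krt27 were the only members whose deposited counts carried decimals, in 9 samples each, so their values are the less certain ones.

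Because the 7 genes moved together through the samples, the sequences just before their start sites are shown for a type I keratin, for 2 type II keratins of the same cluster and for trichohyalin. These are the 250 bases before the RefSeq start site on GRCm38.p6, Krt25 at chr11:99322952-99323201 (minus strand), Krt71 at chr15:101743098-101743347 (minus strand), Krt73 at chr15:101802361-101802610 (minus strand) and Tchh at chr3:93442080-93442329 (plus strand), each printed 5′ to 3′. Capitals mark matches on either strand to any of 4 motifs, which were chosen after the sequences had been seen. The first, TATAAA, is the core promoter element that many strong tissue-specific genes carry. The second, TAATTA, is a core recognised by homeodomain factors. The third, AGATAA, is recognised by the Gata family. The fourth, CTTTGA, is the core recognised by Lef1 and its relatives.
Krt25: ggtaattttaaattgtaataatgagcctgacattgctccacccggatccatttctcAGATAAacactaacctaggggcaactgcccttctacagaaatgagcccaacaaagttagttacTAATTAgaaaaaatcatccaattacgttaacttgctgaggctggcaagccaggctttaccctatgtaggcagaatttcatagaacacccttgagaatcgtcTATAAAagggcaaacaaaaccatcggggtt
Krt71: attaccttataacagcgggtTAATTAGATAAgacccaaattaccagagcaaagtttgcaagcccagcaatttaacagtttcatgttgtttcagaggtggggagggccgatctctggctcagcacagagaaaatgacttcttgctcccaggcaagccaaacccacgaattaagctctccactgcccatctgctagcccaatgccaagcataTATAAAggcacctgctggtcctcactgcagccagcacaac
Krt73: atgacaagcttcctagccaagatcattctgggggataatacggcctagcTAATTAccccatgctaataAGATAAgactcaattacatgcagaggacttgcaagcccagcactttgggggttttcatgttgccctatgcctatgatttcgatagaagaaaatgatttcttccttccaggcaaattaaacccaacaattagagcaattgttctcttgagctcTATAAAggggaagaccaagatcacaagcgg
Tchh: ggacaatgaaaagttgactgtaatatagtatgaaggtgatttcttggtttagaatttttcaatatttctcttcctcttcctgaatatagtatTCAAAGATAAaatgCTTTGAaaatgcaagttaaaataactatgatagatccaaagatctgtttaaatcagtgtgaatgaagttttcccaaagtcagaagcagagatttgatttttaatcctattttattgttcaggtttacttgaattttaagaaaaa
TATAAA was present in the window of 6 of the 7 members, against 12.4% of 32851 promoters of the same length, and in Krt25, Krt28 and Krt73 it began 30 bases before the start site. In Krt72 the match was on the other strand and began 203 bases before the start. TAATTA was found in 4 members (Krt25, Krt28, Krt71 and Krt73), against 4.84% of all promoters. AGATAA was found in 5 members (Krt25, Krt27, Krt71, Krt73 and Tchh), against 9.99% of all promoters, and in Krt71 it overlapped TAATTA by 1 base. CTTTGA was found in 2 members (Krt28 and Tchh), against 13.8%, and in Tchh 1 of its matches overlapped AGATAA. Krt71 and Krt73 shared a run of 14 bases, ttgcaagcccagca, 196 bases before the start in Krt71 and 154 bases before it in Krt73. These letters are descriptions of the windows, and no binding was measured.

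In normal skin the sheath genes were close to silent. Krt25, Krt72 and Krt73 had 0 reads in all 3 samples, where 3 reads over the group would amount to 0.0681 CPM. Krt27 had 6 reads and Krt71 had 4 reads over the 3 normal samples. Krt28 and Tchh stood apart from the others with a low and steady level, 162 and 239 reads over the group. All 12 wound samples held reads of every member.

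Among type I keratins, Krt25, which is made in all layers of the sheath, ranged most widely. It measured 152, 0.168 and 91.9 CPM in acellular 10 mm replicates 1 to 3, and 2385, 152 and 2.55 CPM in acellular 15 mm replicates 1 to 3. It measured 2.90, 0.269 and 5.55 CPM in the HDB 10 mm replicates and 55.3, 9.40 and 11.7 CPM in the HDB 15 mm replicates. The acellular samples thus included both the highest and the lowest Krt25 levels of any wound, and they enclosed the HDB samples at both sizes.

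Krt27, a type I keratin of the same layers, measured 121, 1.35 and 26.3 CPM in acellular 10 mm skin and 823, 87.7 and 1.12 CPM in acellular 15 mm skin. HDB skin held 0.769, 0.753 and 2.28 CPM at 10 mm and 43.3, 6.97 and 8.70 CPM at 15 mm. Every HDB 15 mm sample was above every HDB 10 mm sample. Its normal level was 0.137 ± 0.0720 CPM (SD, n = 3).

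Krt28, the third type I keratin of the sheath, measured 108, 5.39 and 52.1 CPM in acellular 10 mm skin and 636, 70.4 and 3.66 CPM in acellular 15 mm skin. It was even across HDB 10 mm skin at 5.15, 5.43 and 5.22 CPM, and measured 28.7, 7.82 and 8.53 CPM in HDB 15 mm skin. Its normal level of 3.69 ± 0.961 CPM (SD, n = 3) was reached by acellular 15 mm replicate 3, so Krt28 was the only member for which a wound group overlapped normal skin.

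Among type II keratins, Krt71, whose mutation gives mice a curly coat, measured 169, 1.01 and 83.2 CPM in acellular 10 mm skin and 2962, 203 and 3.88 CPM in acellular 15 mm skin. HDB skin held 4.79, 1.40 and 5.22 CPM at 10 mm and 73.1, 17.6 and 17.6 CPM at 15 mm. As for Krt25, the acellular samples enclosed the HDB samples at both sizes.

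Krt72, a keratin of the sheath cuticle, measured 288, 42.8 and 0.584 CPM in acellular 15 mm skin. In acellular 10 mm skin it measured 112, 1.24 and 2.81 CPM, so that replicate 1 alone was high while replicate 3, which was high for the other members, was not. In HDB skin it measured 0.474, 0.484 and 0.555 CPM at 10 mm and 19.1, 5.33 and 2.60 CPM at 15 mm. At 10 mm it was the only member whose HDB samples all lay below all acellular samples.

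Krt73, also a cuticle keratin, measured 118, 1.74 and 76.6 CPM in acellular 10 mm skin and 1062, 124 and 1.81 CPM in acellular 15 mm skin. HDB skin held 3.37, 16.5 and 7.28 CPM at 10 mm and 48.5, 11.5 and 8.13 CPM at 15 mm. Replicate 2 of HDB 10 mm, which was the lowest of its group for Krt25 and Krt71, was the highest for Krt73.

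Tchh, the gene of trichohyalin, measured 510, 9.55 and 59.3 CPM in acellular 10 mm skin and 5034, 256 and 10.8 CPM in acellular 15 mm skin. HDB skin held 10.5, 16.6 and 13.2 CPM at 10 mm and 127, 38.4 and 34.7 CPM at 15 mm. Normal skin held 5.42 ± 0.240 CPM (SD, n = 3), below every wound sample.

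**Figure D1:**
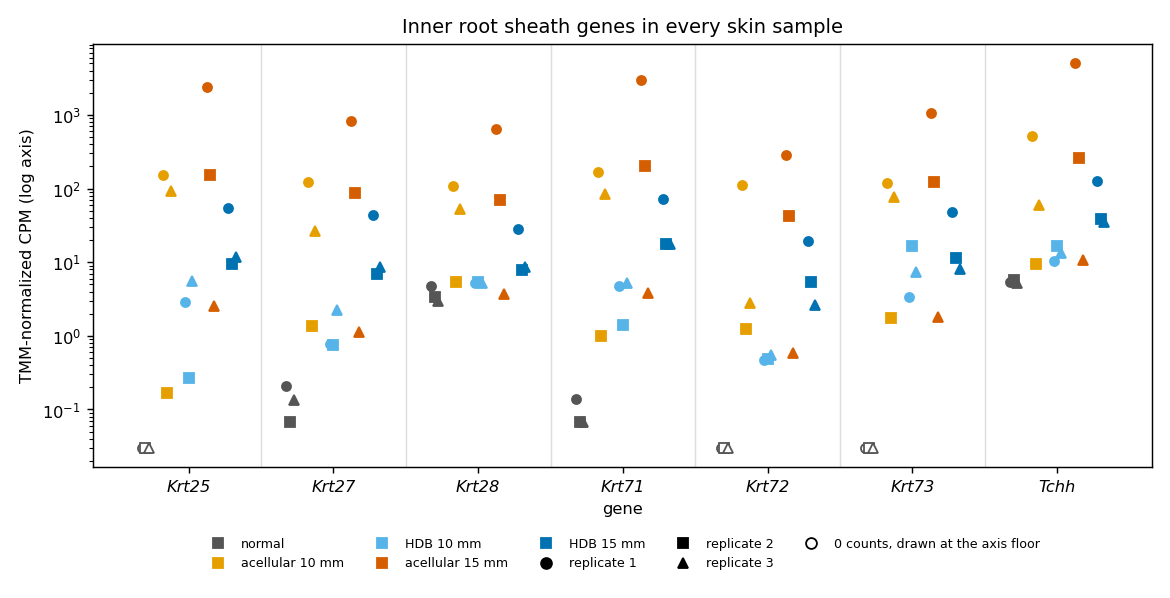
TMM-normalized CPM (log axis) of the 7 inner root sheath genes in every sample, with groups by colour and replicates by shape, and open symbols for 0 counts at the axis floor. Acellular 15 mm replicate 1 is the highest point for every gene (5034 CPM for Tchh), and the 3 normal samples sit at or near the bottom.

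The samples were then ordered by the summed CPM of the 7 genes. Acellular 15 mm replicate 1 came first with 13190 CPM, and it was first for 7 of 7 members. Acellular 10 mm replicate 1 followed with 1291 CPM and acellular 15 mm replicate 2 with 936 CPM, and these 3 samples were the top 3 for every member. HDB 15 mm replicate 1 (395 CPM) and acellular 10 mm replicate 3 (392 CPM) did not differ by more than the spread within their groups. The remaining acellular samples, acellular 15 mm replicate 3 (24.4 CPM) and acellular 10 mm replicate 2 (20.4 CPM), were the lowest of all 12 wound samples.

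The samples of a group were not equally alike. The ratio of the highest to the lowest sum within a group was 540 in acellular 15 mm and 63.1 in acellular 10 mm. It was 4.30 for HDB 15 mm wounds, 1.48 for HDB 10 mm wounds and 1.25 for normal skin. These ratios are descriptions of 3 samples each, with no test, and they turn on single libraries. The ratio was 38.3 in acellular 15 mm without replicate 1 and 14.1 without replicate 3, it was 19.2 in acellular 10 mm without replicate 1 and 3.29 without replicate 2, and it was 1.06 for HDB 15 mm wounds without replicate 1. The median sum was 936 CPM in acellular 15 mm against 97.0 CPM in HDB 15 mm, and 392 CPM in acellular 10 mm against 39.3 CPM in HDB 10 mm. Each median is 1 middle sample and turns on single libraries too. The lowest and highest sums were 24.4 and 13190 CPM in acellular 15 mm and 91.9 and 395 CPM in HDB 15 mm. At 10 mm they were 20.4 and 1291 CPM in acellular skin and 28.0 and 41.4 CPM in HDB skin. Within the wound groups the pooled standard deviation of log2 CPM (prior count 2) ran from 2.23 for Krt28 to 3.73 for Krt25, above that of 99.3% to 99.98% of the genes tested, where the median gene had 0.31.

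The main question of the design was whether skin treated with cell-laden beads differed from skin treated with cell-free beads. All 7 members were fitted lower in HDB skin at both wound sizes, by several log2 units, and none passed the test. At 10 mm the log2 fold change ran from -6.24 ± 2.27 (SE) for Krt72 to -2.85 ± 1.73 for Krt73, with a median of -4.47 over the members and -0.01 over all genes tested. The quasi-likelihood test of edgeR, adjusted by Benjamini-Hochberg, called 0 of 7 members (0% of all genes tested were called; adjusted p = 1.00 for each), 5 members had an unadjusted p under 0.05, as did 543 of 15369 genes, and DESeq2 called 0. Without acellular 10 mm replicate 1 the fold changes shrank, to -1.98 for Krt72, -1.36 for Tchh and -3.98 for Krt25. The separation of Krt72 at 10 mm is one that 6.47% of all genes showed in that direction.

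At 15 mm the fitted log2 fold changes were more alike, from -5.05 ± 2.2 (SE) for Krt25 to -3.61 ± 1.86 for Krt72, with a median of -4.12 over the members and 0.00 over all genes. The edgeR test again called 0 of 7 members, while 2.93% of all genes were called, with adjusted p from 0.116 for Krt28 to 0.272 for Krt72. At an unadjusted p under 0.05 there were 6 members and 3567 genes. DESeq2 called 3 members, Krt28, Krt71 and Tchh. With replicate numbers as a block the edgeR fold changes lay between -4.43 for Krt25 and -2.53 for Krt72, and 0 members were called. Without acellular 15 mm replicate 1 the fold changes shrank to between -1.60 for Krt25 and -1.0 for Tchh, and without acellular 15 mm replicate 3 the edgeR test called 4 members, Krt27, Krt28, Krt71 and Tchh.

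Over both sizes the fold changes lay between -4.93 ± 1.56 (SE) for Krt25 and -3.49 ± 1.25 for Krt73. The edgeR test called 0 of 7 members (0% of all genes), with Benjamini-Hochberg adjusted p from 0.261 to 0.268. All 7 had an unadjusted p under 0.05, as did 2428 of all genes, and DESeq2 called 6 of 7, all but Krt73. Without acellular 15 mm replicate 1 the fold changes of Krt25, Tchh and Krt73 shrank to -3.21, -2.42 and -2.16, and without acellular 10 mm replicate 1 that of Krt72 shrank from -4.93 to -2.80. Without acellular 15 mm replicate 3 the edgeR test called 4 members, Krt27, Krt28, Krt71 and Tchh. All fits gave the same direction, and the call depended on the tool and on that library. Fibroblast genes stood the other way in the same samples. The summed level of Col1a1, Col3a1, Dcn, Lum and Pdgfra was 2299 to 3598 CPM in acellular 10 mm skin and 6119 to 8084 CPM in HDB 10 mm skin, without overlap, and 2366 to 10067 CPM against 5672 to 11797 CPM at 15 mm. All 5 were fitted higher in HDB skin at both sizes (log2 fold change 0.78 for Pdgfra to 1.56 for Lum at 10 mm). edgeR called 0 of 5 (0% of all genes at 10 mm and 2.93% at 15 mm). Endothelial (3 of 3) and leukocyte genes (4 of 4) were also fitted higher at both sizes. At 10 mm and 15 mm, 4 and 3 of 4 adipocyte genes, 1 and 4 of 4 muscle genes, and 3 and 6 of 7 epidermal genes were fitted higher. Melanocyte genes were fitted lower for 3 and 4 of 4. The part of these lists in the difference of the sheath genes was not tested.

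**Figure D2:**
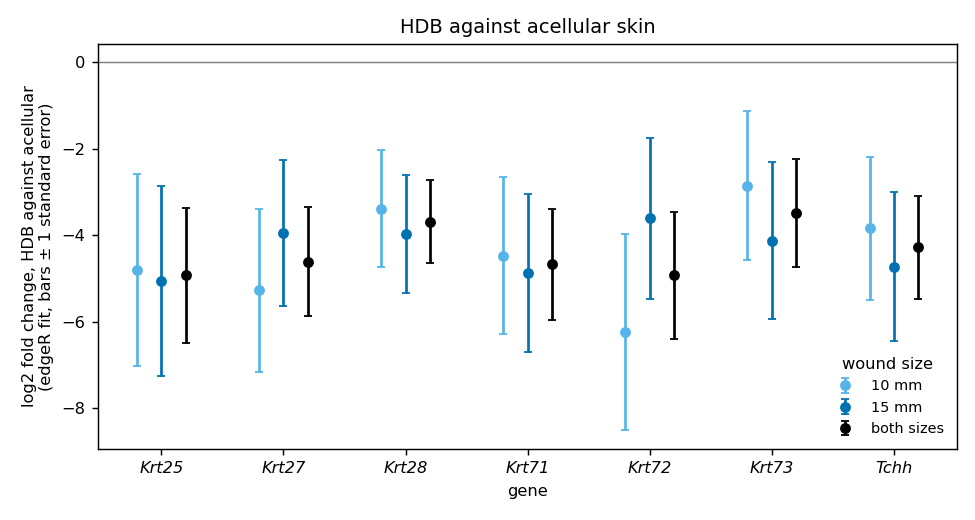
Log2 fold change of HDB against acellular skin from the edgeR fit for each of the 7 genes, by wound size and with both sizes joined, with bars of 1 standard error. All 21 estimates lie below 0, and the one for Krt72 at 10 mm is the farthest from it at -6.24.

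The fold change at 15 mm did not differ detectably from that at 10 mm. The interaction ran from -1.27 ± 2.29 (SE, log2) for Krt73 to 2.63 ± 2.72 for Krt72, and edgeR called 0 of 7 members (0% of all genes). No member had an unadjusted p under 0.05, and DESeq2 called 0. The sign of the interaction changed for every member with 1 or another sample left out.

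Wounds were next compared with normal skin, a comparison in which all groups share the same 3 normal samples. In acellular 10 mm skin the keratins Krt25, Krt27, Krt71, Krt72 and Krt73 were higher than in normal skin. Group means were at least 1196-fold higher for Krt25, at least 570-fold for Krt72 and at least 961-fold for Krt73, each against the floor of 3 reads over the normal group. These means depend on replicate 1, without which the bounds were 677, 29.7 and 575, and the lowest single sample gave bounds of 2.48, 18.2 and 25.6 in the same order. Krt71 was 923-fold higher (95% counting interval of the normal count 363 to 3415) and Krt27 361-fold higher (167 to 991), and without replicate 1 these were 460 and 101. These 5 of 7 were called by edgeR, with Benjamini-Hochberg adjusted p from 0.0252 for Krt71 to 0.0465 for Krt25. Of all genes, 20.3% were called in either direction, and 1501 of 15369 were called higher. Krt28 (log2 fold change 3.90 ± 1.40 SE, adjusted p = 0.0649) and Tchh (5.15 ± 1.78, adjusted p = 0.0572) did not pass, and without replicate 1 their fold changes were 2.96 and 2.67. Both passed with DESeq2, which called 7 members, with total counts without TMM, which also called 7, and with these 2 groups fitted alone. The call rests on single libraries, since 0 members were called without acellular 10 mm replicate 1 or without any 1 of normal replicates 1, 2 and 3, and 1 without acellular 10 mm replicate 3. All 3 samples lay above all normal samples for 7 of 7 members, as for 29.1% of all genes.

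In acellular 15 mm skin all 7 members were called higher than in normal skin. Of all genes, 30.2% were called in either direction, and 2701 of 15369 were called higher. Krt25 was at least 12437-fold higher in the mean, Krt73 at least 5819-fold and Krt72 at least 1621-fold. Without replicate 1 these bounds were 1137, 925 and 318, and the lowest single sample gave 37.4, 26.5 and 8.58. Krt71 was 11543-fold higher (4546 to 42724), and 1130-fold without replicate 1. Tchh had a log2 fold change of 8.35 ± 2.04 (SE) and Krt28 one of 6.0 ± 1.53. Adjusted p by edgeR with Benjamini-Hochberg adjustment lay between 0.00722 for Krt71 and 0.0220 for Krt72. Without acellular 15 mm replicate 1 the test called 5 members, and the log2 fold changes of Tchh and Krt28 were 4.62 and 3.32, and without normal replicate 3 it called 3. A fit of these 2 groups alone called 0, and DESeq2 called 7. For 6 of 7 members all samples lay above all normal samples, as for 22.5% of all genes, with Krt28 as the exception.

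In HDB skin the sheath genes were also above normal skin in every sample, at lower means. At 10 mm, Krt25 was at least 42.7-fold, Krt73 at least 133-fold and Krt72 at least 7.41-fold higher. The bound of Krt25 was 23.3 without replicate 3 and that of Krt73 was 78.2 without replicate 2. Krt28 had a log2 fold change of 0.51 ± 1.33 (SE) and Tchh one of 1.31 ± 1.56, with a ratio of means of 2.48 for Tchh (2.18 to 2.83). The edgeR test called 0 of 7 members, where 12.3% of all genes were called. One of the members, Krt73, had an unadjusted p under 0.05, as did 4862 genes, and DESeq2 called 4, namely Krt25, Krt71, Krt72 and Krt73. All samples were above all normal samples for 7 of 7 members, as for 25.7% of all genes.

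At 15 mm, Krt25 was at least 374-fold, Krt73 at least 333-fold and Krt72 at least 133-fold higher in HDB than in normal skin. Krt71 was 394-fold higher (155 to 1460). Without replicate 1 the bounds were 155, 144 and 58.3, and Krt71 was 192-fold higher. Tchh had a log2 fold change of 3.62 ± 1.67 (SE), and one of 2.75 without replicate 1. The edgeR test called 0 of 7 members, where 5.18% of all genes were called, with Benjamini-Hochberg adjusted p from 0.0705 for Krt71 to 0.347 for Krt28. At an unadjusted p under 0.05 there were 6 members and 4133 genes. DESeq2 called 5 members, and edgeR fitted to these 2 groups alone called 7. All samples lay above all normal samples for 7 of 7 members, as for 23.8% of all genes. With Krt25, Krt72 and Krt73 set at their bound, the median ratio of the members to normal skin was 2213 in acellular 15 mm. In acellular 10 mm it was at least 570, the bound of Krt72. It was 143 for HDB 15 mm wounds and 9.23 for HDB 10 mm wounds. The medians other than 570 are the ratio of means of Krt27, with counting intervals of 1025 to 6082, 66.3 to 393 and 4.27 to 25.4 in that order. Without replicate 1 of the wound group the medians were 323 in acellular 15 mm, 101 in acellular 10 mm and 11.0 for HDB 10 mm, each from Krt27. For HDB 15 mm the median was at least 58.3 without replicate 1, the bound of Krt72. For HDB 10 mm the median fell without replicate 3, to the bound of Krt72, at least 7.04.

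Wound size was compared within each treatment. In acellular skin the 15 mm fold changes over 10 mm lay between 1.51 ± 1.70 (SE, log2) for Krt72 and 3.64 ± 1.72 for Krt71. edgeR called 0 of 7 members (0% of all genes), none had an unadjusted p under 0.05, and DESeq2 called 0. Without acellular 15 mm replicate 1 the fold change was below 0 for 6 members, all but Krt71 (Krt72 -0.84), so the direction rests on that library. In HDB skin the fold changes lay between 1.33 ± 1.66 for Krt73 and 4.14 ± 2.18 for Krt72. Without HDB 15 mm replicate 1 they were 0.11 for Krt73 and 2.95 for Krt72, and those of the other 5 members also shrank. edgeR called 0 of 7 (0% of all genes), 1 member (Krt27) had an unadjusted p under 0.05, and DESeq2 called 0. Here 6 of 7 members were higher in every 15 mm sample than in every 10 mm sample, as were 11% of all genes, and Krt73 overlapped.

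The make-up of the sheath set was compared on a scale that allows for transcript length, CPM per kb of the longest transcript. In most wound samples, at high and low levels, the summed type II keratins were close to the summed type I keratins. The ratio of summed type II to summed type I keratin CPM per kb was 0.939 in acellular 15 mm replicate 1, 0.974 in replicate 2 of that group, 0.856 in acellular 10 mm replicate 1, 0.785 in replicate 3 of that group and 0.894 in HDB 15 mm replicate 1. The extremes among wounds were acellular 10 mm replicate 2 (0.444, from 194 keratin reads) and HDB 10 mm replicate 2 (2.14, from 461 keratin reads), and the other 10 wound samples lay between 0.682 and 1.15. In normal skin, where Krt28 made up 64.1% to 72.5% of the summed CPM per kb of the 7 genes, the ratio was 0.0146 to 0.0209.

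Krt71 had the highest level per kb in 5 samples, which were acellular 15 mm replicates 1 and 2 and all 3 HDB 15 mm replicates. It made up 27.2% and Krt25 24.1% of the summed CPM per kb in acellular 15 mm replicate 1. Krt28, Tchh, Krt72 and Krt73 all varied widely against Krt71. Among wound samples the ratio per kb to Krt71 ran from 0.289 to 7.18 for Krt28 and from 0.268 to 4.45 for Tchh. The ratio of Krt72 to Krt71 per kb was 0.744 in acellular 10 mm replicate 1 and 0.0378 in replicate 3 of the same group, against 0.109 in acellular 15 mm replicate 1 and 0.293 in HDB 15 mm replicate 1. Krt73, the member nearest to Krt72 in the cluster and also a cuticle keratin, had a ratio to Krt71 of 0.703 and 0.928 in those acellular 10 mm samples. The ratio of Krt73 reached 11.9 in HDB 10 mm replicate 2, where Krt73 made up 49.6% of the set.

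**Figure D3:**
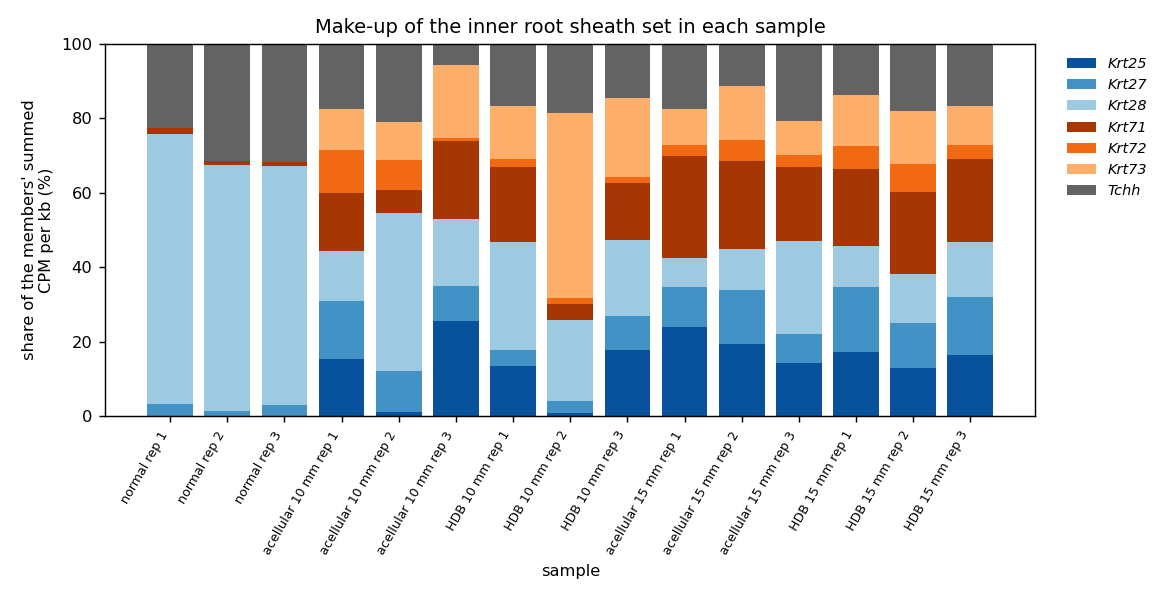
Share (%) of each of the 7 genes in their summed CPM per kb, 1 bar a sample. Normal skin is mostly Krt28 (64.1% to 72.5%) and Tchh, wound samples hold all 7 genes, and HDB 10 mm replicate 2 stands out by its Krt73 (49.6%).

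Across the 15 samples the log2 CPM of the members correlated pairwise with Pearson r of 0.869 to 0.993 over 21 pairs, and with r of 0.823 to 0.986 within the wound groups over 12 samples. These are descriptions over samples that share groups and a few high libraries. The 10 genes with the pattern most like the members' mean log2 CPM over the 15 samples were S100a3 (r = 0.989), Krt83 (0.986), Ggt1 (0.981), Crnn (0.981), Foxe1 (0.977), Krt26 (0.975), Hoxc13 (0.974), Calhm4 (0.973), Krt87 (0.973) and Krt81 (0.972). S100a3 encodes a calcium-binding protein of the hair cuticle, Krt81, Krt83 and Krt87 are keratins of the hair shaft, Krt26 is a keratin of the sheath cuticle and Hoxc13 is a homeodomain factor of the follicle.

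Other genes linked to the sheath followed the members to different degrees. Of a list of 16 partners (keratins, enzymes and transcription factors linked to the sheath, not all particular to it), 15 were in the table and tested. Against normal skin, edgeR with Benjamini-Hochberg adjustment called 12 of 15 higher in acellular 15 mm and 4 in acellular 10 mm. HDB 10 mm had 0, HDB 15 mm had 1, and none were called lower. The share of all genes called in either direction, in that order, was 30.2%, 20.3%, 12.3% and 5.18%. Those called higher were 2701, 1501, 937 and 411 of 15369 genes. The counts of 4 and 1 are near the share for both directions. The median log2 fold changes of the list in that order were 4.27, 1.88, 0.80 and 1.95, against 0.06, 0.03, 0.02 and 0.02 over all genes. Between HDB and acellular skin 0 of 15 were called at either size, where 0% of all genes were called at 10 mm and 2.93% at 15 mm. All 15 were fitted lower, with median log2 fold changes of -1.57 at 10 mm and -2.63 at 15 mm.

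Tchhl1, a relative of trichohyalin, was listed with 0 reads in normal skin, and measured 152, 32.8 and 1.70 CPM in acellular 15 mm replicates 1 to 3 and 23.9, 1.57 and 1.87 CPM in acellular 10 mm replicates 1 to 3, so replicate 1 carried both means. It was called higher in both acellular groups (edgeR with Benjamini-Hochberg adjustment, adjusted p = 0.0359 at 10 mm and 0.0097 at 15 mm). Padi3, which deiminates trichohyalin, measured 267, 50.3 and 1.06 CPM in acellular 15 mm replicates 1 to 3 and 0.0671 to 0.335 CPM in normal skin. It was called higher in acellular 15 mm with a log2 fold change of 8.97 ± 2.12 (SE, adjusted p = 0.0108), and was not called in acellular 10 mm (5.76 ± 2.02, adjusted p = 0.0594). Padi1, another deiminase, measured 33.3, 0.112 and 1.40 CPM in acellular 10 mm replicates 1 to 3 and 0.0670 to 0.201 CPM in normal skin, so replicate 1 carried its mean and replicate 2 lay within the normal range. It was called higher in both acellular groups (6.59 ± 2.14 at 10 mm, adjusted p = 0.0468, and 8.65 ± 2.19 at 15 mm, adjusted p = 0.0139).

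Tgm3 and Tgm1 are cross-linking enzymes. Tgm3 stood at 283 CPM in acellular 15 mm replicate 1 but at 12.1 and 7.01 CPM in the other replicates of that group, against 15.4 to 21.8 CPM in normal skin, and was called in none of the comparisons with normal skin (log2 fold change 2.51 ± 1.09 SE in acellular 15 mm, edgeR adjusted p = 0.0969). Tgm1 was likewise called in none. Gata3, a transcription factor required for the sheath that the epidermis also expresses, ran from 65.4 to 182 CPM over all samples and was not called.

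Among the other regulators, Hoxc13 was called higher at both acellular sizes (log2 fold change 3.29 ± 0.90 SE at 10 mm, adjusted p = 0.0261, and 5.05 ± 0.96 at 15 mm, adjusted p = 0.00534) and for HDB 15 mm wounds (3.44 ± 0.90, adjusted p = 0.0481). It was the only partner called in an HDB group. Dlx3, Msx2, Foxn1, Lef1, Cux1 and Ovol1 were called higher in acellular 15 mm, where Dlx3 measured 412, 57.7 and 5.47 CPM and Msx2 213, 34.4 and 5.10 CPM in replicates 1 to 3. In replicate 3 Dlx3 and Ovol1 (22.0 CPM) lay within the normal range, and Cux1 (76.1 CPM) lay below all normal samples. Krt26 and Krt75, the keratins of the list that were tested, reached 187 and 580 CPM in replicate 1, and stood at 1.12 and 22.4 CPM in replicate 3. Krt75 in replicate 3 thus lay within its normal range of 21.2 to 25.0 CPM, while Krt26 had 0 reads in normal skin.

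Lists for the cells around the sheath show what moved with it. Hair shaft keratins (10 of 11 in the table) were called higher than normal for 10 of 10 in acellular 15 mm and for 1 in acellular 10 mm (Krt35). HDB 10 mm had 0 and HDB 15 mm had 1 (Krt84). The shares of all genes called in either direction were again 30.2%, 20.3%, 12.3% and 5.18% in that order, with 2701, 1501, 937 and 411 of 15369 called higher. Their summed level was 9623, 1013 and 11.0 CPM in acellular 15 mm replicates 1 to 3 and 0.937 to 1.07 CPM in normal skin. In HDB against acellular skin all 10 were fitted lower at both sizes, with median log2 fold changes of -5.35 at 10 mm and -4.77 at 15 mm. None of the 10 was called there, where 0% and 2.93% of all genes were called. Krt84 did not follow the sheath genes, with 161 CPM in acellular 15 mm replicate 2 and 83.1 CPM in HDB 15 mm replicate 1 against 9.64 CPM in acellular 15 mm replicate 1. Of 9 outer root sheath and bulge genes, 5 were called higher and 1 lower in acellular 15 mm, and 3 higher and 0 lower in HDB 15 mm, where 30.2% and 5.18% of all genes were called. At 10 mm, where the shares were 20.3% and 12.3%, 5 were called higher and 2 lower in acellular skin, and 3 higher and 2 lower in HDB skin. Between HDB and acellular skin 0 of 9 were called at either size, where 0% of all genes were called at 10 mm and 2.93% at 15 mm. The log2 fold changes of the 9 ran from -1.09 (Lhx2) to 0.17 (Cd34) at 10 mm and from -0.46 (Krt17) to 0.89 (Cd34) at 15 mm.

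Proliferation genes were called higher than normal for 6 of 6 in both acellular groups and also at HDB 10 mm. At HDB 15 mm 1 of 6 (Ccnb1) was called higher. The shares of all genes called in either direction were 20.3% (acellular 10 mm), 30.2% (acellular 15 mm), 12.3% and 5.18%, with 1501, 2701, 937 and 411 of 15369 higher. In HDB against acellular skin all 6 were fitted lower at both sizes, with medians of -0.09 at 10 mm and -1.08 at 15 mm (log2). None of the 6 was called there, where 0% and 2.93% of all genes were called. Their sum was 1489 CPM in acellular 15 mm replicate 1, the sample with the most sheath RNA, but 267 CPM in acellular 15 mm replicate 2 and 349 CPM in acellular 10 mm replicate 1, which came next, and 485 CPM in HDB 10 mm replicate 2, where the sheath sum was 41.4 CPM. Acellular 15 mm replicate 1 also had the lowest epidermal sum of all samples (5505 CPM) and the highest sum of the 4 melanocyte genes (2141 CPM, against 37.4 to 293 CPM in the other 14). The part of these differences in the results was not tested.

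The remaining lists were summed in the same way. Fibroblast genes (5), given above for wounds, ran from 4968 to 15708 CPM in normal skin. Skeletal muscle genes (4) ran from 376 to 23906 CPM in wounds and 33645 to 36961 CPM in normal skin, so wound samples held less muscle RNA than normal ones. Adipocyte genes (4) ran from 77.2 to 1321 CPM in wounds and 600 to 1859 CPM in normal skin. Endothelial genes (3) ran from 65.9 to 263 CPM in wounds and 353 to 392 CPM in normal skin. Leukocyte genes (4) ran from 23.9 to 172 CPM and erythrocyte genes (3) from 26.8 to 615 CPM over all samples. Their part in the results was not tested.

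**Figure D4:**
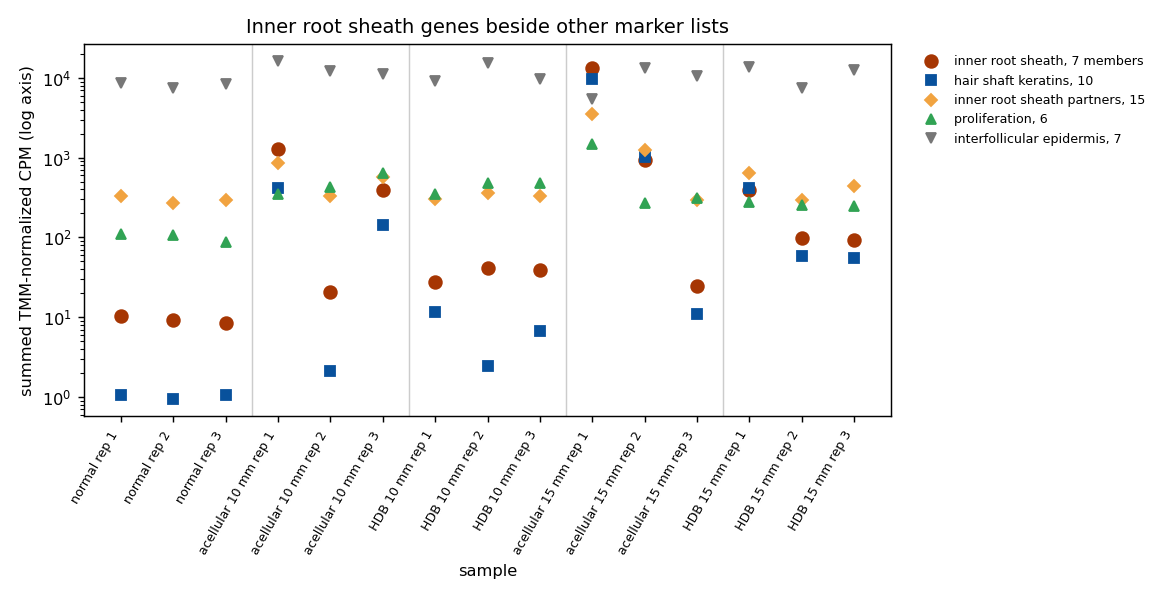
Summed TMM-normalized CPM (log axis) of the 7 sheath genes, 15 partners, 10 hair shaft keratins, 6 proliferation genes and 7 epidermal genes in each sample. The sheath and hair shaft sums move over more than 3 orders of magnitude and together, while the epidermal sum stays between 5505 and 16322 CPM.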

How the data were processed

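The data are bulk RNA sequencing libraries of whole mouse skin, 15 in number and 3 for each of 5 groups, with total counts from 15840551 to 18404188. The authors deposited 1 table of expected counts (estimated counts of reads per gene, not normalized) for 18929 genes, from poly(A)-selected RNA. The submitters' processing notes name HISAT2 2.0.4, Bowtie2 2.2.5, RSEM 1.2.12 and the genome build GRCm38.p6, and strand was not given in the sources used here. Reads shared by similar keratins are divided by estimation in such counts.

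Expected counts were rounded to whole numbers. The main test was the quasi-likelihood F-test of edgeR (4.0.16, R 4.3.3) after filterByExpr and TMM, with 5 group means over all 15 samples, Benjamini-Hochberg adjustment over 15369 genes and a threshold of 0.05. The standard error of a log2 fold change was taken as its size over root F. log2 CPM used a prior count of 2. The script was tested on simulated data. Alternatives were DESeq2 1.42.0, total counts without TMM, no filter, a mean count of at least 50, the compared groups alone, a replicate block and each sample left out in turn. The study's methods name DESeq2, which was kept as the alternative.

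The text names all 7 members, the 10 genes most correlated with their mean, and members of lists of sheath partners, hair shaft, outer root sheath and bulge, proliferation, epidermis, fibroblast, endothelium, muscle, adipocyte, melanocyte, leukocyte and erythrocyte genes. The members and lists were chosen with earlier results of these data known. Krt74 and Krt85, on the lists, are not analysed here. Transcript lengths come from GENCODE on GRCm38, and promoter sequences of all 7 members from RefSeq on GRCm38.p6.

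Replicate numbers in the labels are not said to mark shared animals or days. Deviations from group means correlated above 0.1 for all 3 same-numbered pairs only between acellular 15 mm and HDB 15 mm (0.397, 0.167 and 0.183). Between acellular 10 mm and HDB 15 mm the values were 0.489, 0.242 and -0.342. None of these values shows that samples were paired. Intervals and floors cover counting error only.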

Additional observations from a re-analysis of the deposited data

How the results depend on the processing

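The number of members called depended on the tool and on single libraries. In HDB 10 mm against normal it was 4 with DESeq2 and 4 with the compared groups alone, where 5 of the 7 passed the filter. In HDB 15 mm against normal it was 5 with DESeq2, 7 with the compared groups alone and 1 with total counts without TMM. In acellular 15 mm against normal it was 0 with the compared groups alone. In HDB against acellular skin DESeq2 called 3 at 15 mm and 6 over both sizes. Leaving out 1 sample at a time gave 0 to 5 in acellular 10 mm against normal, 3 to 7 in acellular 15 mm against normal, and 0 to 4 in HDB against acellular both at 15 mm and over both sizes, with 4 reached without acellular 15 mm replicate 3. The cause was not tested.

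The replicate block moved no count of members called by over 1.5 times (with it, 4 members were called in acellular 10 mm and 7 in acellular 15 mm against normal, and 0 in the other comparisons). Same-numbered samples were not shown to be pairs, at 15 mm or elsewhere.

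The direction of the acellular size comparison and of the interaction also changed with single samples, while HDB 15 mm against 10 mm kept its direction in all settings tried. In acellular skin, 15 mm against 10 mm, the log2 fold change without 1 sample lay between -0.075 and 4.20 for Krt25, -0.16 and 4.46 for Krt27, -0.58 and 3.04 for Krt28, -0.84 and 5.77 for Krt72, -0.057 and 3.34 for Krt73, and -0.53 and 5.68 for Tchh. The interaction of treatment and size lay between -1.52 and 3.21 for Krt25, -0.51 and 4.11 for Krt27, -1.53 and 2.09 for Krt28, -1.43 and 2.96 for Krt71, -1.63 and 4.98 for Krt72, -2.48 and 1.38 for Krt73, and -3.37 and 2.84 for Tchh. With 1 sample left out of a group of 3, the shared spread of all groups stands in for the 2 that remain. HDB against acellular kept its direction in all settings tried for all 7 members. Leaving 1 sample out of the ratios to normal skin and of the ratios of summed levels within a group were alternatives chosen after seeing the data.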
